A study of Mus musculus with 16 samples.

Results

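Of the 31274 genes measured by RNA-seq in the mouse seminal vesicle (SV), 214 lay apart from vehicle-treated wild type in αERKO mice, whether or not those mice had received diethylstilbestrol (DES). A gene was taken where all 8 αERKO samples were above, or all 8 below, all 4 WT-veh samples, where both αERKO group means differed from the WT-veh mean by at least 1.5-fold in that direction, and where the higher of the WT-veh mean and the 8-sample αERKO mean was above 2 FPKM. FPKM is a fragment count scaled to the length of the transcript and to all fragments mapped. By this rule 111 genes (0.355%) were higher in αERKO and 103 (0.329%) were lower. The members were chosen by their FPKM in WT-veh and in both αERKO groups, so the differences between them are given as a description with no test. The WT-DES samples were not used in the choice.

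The study asked how DES in newborn mice acts on the male tract and what part oestrogen receptor α (ERα) takes in it. The SV RNA came from male C57BL/6 mice aged 5 weeks, in 4 groups of 4 samples. WT-veh and WT-DES mice had an intact *Esr1*, the gene for ERα, and αERKO-veh and αERKO-DES mice carried it disrupted in every tissue. DES groups were injected under the skin with 2 µg DES in corn oil per pup on each of days 1 to 5 of life, and veh groups with corn oil alone. WT pups were born to C57Bl/6 females bought pregnant, whereas αERKO mice were bred from heterozygous parents, so that genotype and colony cannot be told apart. The SV was dissected off the anterior prostate. The methods give 4 individual mice for 3 of the groups and 3 pools of mice for WT-DES in RNA extraction, against 4 RNA-seq samples in each group, so p-values measure the spread between samples whose independence in WT-DES is not known. In WT, the summed FPKM of 11 SV secretion genes was 57853 to 66423 with vehicle and 2594 to 8561 with DES, and in αERKO 35482 to 55859 with vehicle and 39764 to 74454 with DES, so that the markers of the labelled tissue were present in every sample and lowest in WT-DES. The files hold no fragment counts and the depth of each sample is unknown.

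ERα is a nuclear receptor that binds oestrogens such as estradiol and DES and, once bound, regulates transcription at the genes to which it attaches. The SV is an androgen-dependent gland whose epithelium secretes much of the fluid of the ejaculate, and it expresses ERα. Male mice without ERα are infertile. In whole tissue, fewer cells of a type and less RNA per cell cannot be told apart.

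The typical difference was modest. Among the 111 higher members the median ratio of mean FPKM to WT-veh was 1.77 in αERKO-veh and 1.77 in αERKO-DES. The 103 lower members had medians of 0.541 and 0.55, respectively. Taking for each gene the smaller of its 2 folds, 23 higher and 26 lower members reached 2-fold, and 5 and 7 reached 3-fold. Without the fold and level conditions, all 8 αERKO samples were above WT-veh for 4.92% of the 15988 genes with a mean above 1 FPKM in at least 1 group, and below it for 3.88%. All 214 members were among these 15988 genes, of which the 111 higher are 0.694% and the 103 lower 0.644%. The 3 members nearest the limit, *C1qtnf4*, *Ctxn1* and *Vcan*, had smaller folds of 1.5006, 1.5006 and 1.5007, and just outside it *Sec24a* and *Sema3c* had 1.4991 and 1.4985. Folds ran on across the limit without a gap among the 1319 genes that met the rest of the rule.

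**Figure D1:**
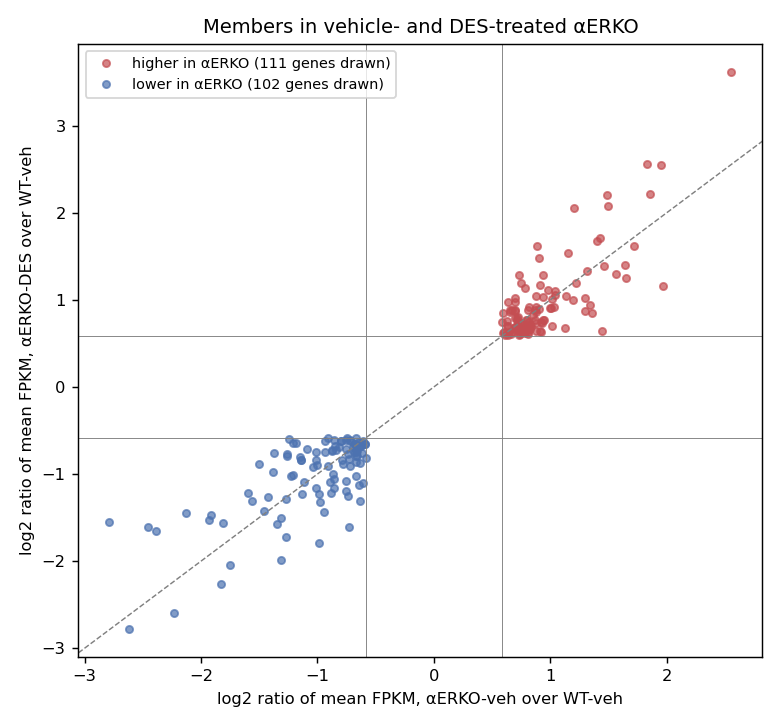
Log2 ratio of mean FPKM to WT-veh for each member, in αERKO-veh (horizontal axis) and αERKO-DES (vertical axis). Grey lines mark the 1.5-fold limit, the dashed line marks equal ratios, and 1 lower member listed at 0 in αERKO-veh is not drawn. Red genes are higher and blue genes lower in αERKO, and the empty corners follow from the rule that chose them.

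The WT-DES samples had no part in the choice, but the αERKO samples beside which they are set here did. A rule that takes genes for extreme αERKO values by itself leaves other samples on the WT side, so the positions that follow are a description. Averaged over the 111 higher members, log2(FPKM + 1) was 2.93 to 3.08 with vehicle and 2.66 to 2.81 with DES in WT, and 3.71 to 3.96 with vehicle and 3.59 to 3.98 with DES in αERKO. Over the 103 lower members the same average was 3.65 to 3.78 and 3.45 to 3.72 in WT, and 2.63 to 3.02 and 2.66 to 3.12 in αERKO. On both averages the WT-DES samples thus lay on the WT side. For the higher members they lay below WT-veh as deposited, whereas after rescaling without the 20 most abundant genes they lay at 2.92 to 3.01 and overlapped the 2.76 to 3.001 of WT-veh. Gene by gene, all 4 WT-DES samples were below all 8 αERKO samples for 76 of the higher members, overlapped them for 32 and were above them for 3, against 26.5%, 47.4% and 26.2% of all genes tested. For the lower members all 4 were above the αERKO samples for 50, overlapped them for 44 and were below them for 9.

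**Figure D2:**
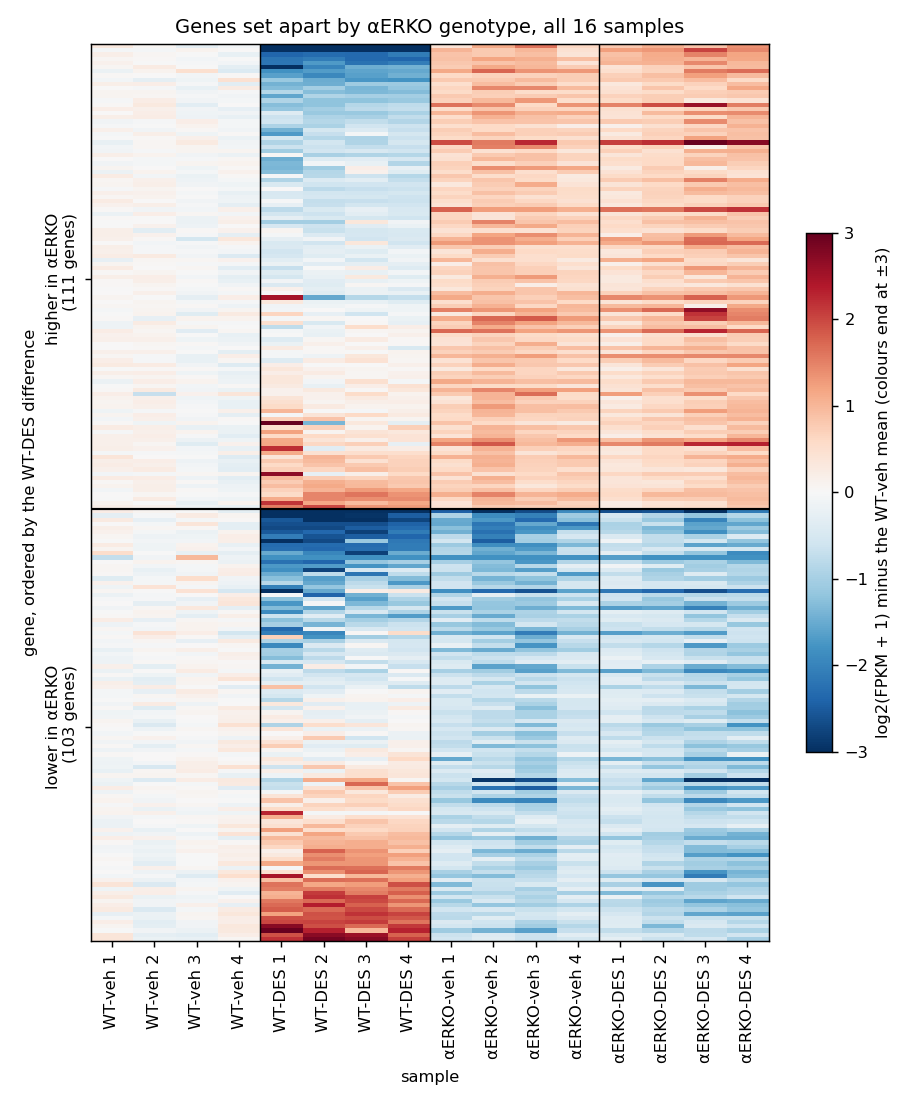
Log2(FPKM + 1) minus the WT-veh mean (colour scale, ending at ±3) for the 111 higher and 103 lower members (rows, ordered by the WT-DES difference) in the 16 samples (columns). The WT-veh and αERKO columns differ by choice. The WT-DES columns hold members that lie below WT-veh, near it and above it on both sides.

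Changes with DES were tested with limma in 1 model of all 16 samples on log2(FPKM + 1), with Benjamini-Hochberg adjustment over the 15988 genes, and a gene was called where the adjusted p was at most 0.05 and the ratio of mean FPKM at least 1.5. All log2 changes given are differences on that scale and fall short of the true change for genes of low level. In WT-DES relative to WT-veh, 15 of the 111 higher members were called higher and 35 lower, or 13.5% and 31.5%, against 28.9% and 23.9% of all genes tested. Of the 103 lower members 30 were called higher and 33 lower, or 29.1% and 32.0%. Over all 214 this makes 113 called (52.7% of all genes were), 45 higher and 68 lower, and 71 higher and 44 lower once every sample was rescaled to the same total without the 20 most abundant genes, a step that shifted the median of all genes by 0.37. The share of all genes called after this rescaling was not counted, so the 71 and 44 cannot be read as a result about the members. The share called higher was less than the background among higher members and close to it among lower members, and the share called lower was above the background on both sides, before the rescaling. The WT-veh samples of this comparison also entered the rule, which by itself favours a rise in WT-DES for higher members and a fall for lower members. The p given below for single members carry this limit. It bears on the rises of *Dusp4*, *Pappa2*, *Plekhg1*, *Lama3* and *Trp53inp1*. It bears too on the falls of *Ms4a5*, *Gm694*, the α-defensins and the histone H4 genes. WT-DES sample 1 stood alone at one end of its group, with a gap past Dixon's limit, for 18 of the 214 members, against 0 to 7 for each of the other 15 samples. Without it 46 members were called higher and 69 lower in WT-DES.

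Between the αERKO groups 1 of 214 members was called with DES, *Doxl2*, against 0.0876% of all genes called higher and 1.41% called lower. With an unadjusted p of at most 0.05 there were 25 members (11.7%), against 25.3% of all genes tested, and the rule, by asking both αERKO groups to lie on the same side of WT-veh, bears on this share. Between the DES-treated groups, 84 of the higher members were called higher in αERKO and 3 lower, and 16 of the lower members were called higher and 61 lower, against 23.7% and 29.6% of all genes tested. Of the 214 this is 164 called, against 53.4% of all genes, 100 higher and 64 lower, and 72 higher and 74 lower under the same rescaling. The share of all genes called under the rescaling was not counted here either. The αERKO-DES samples entered the rule, which by itself favours these directions, so no p between the DES-treated groups is given for single members. The change with DES differed between WT and αERKO for 106 members (56.4% of all genes), measured as the WT change minus the αERKO change and called the interaction here. It was positive for 46 and negative for 60, against 29.6% and 26.9% of all genes, and 71 and 40 under the rescaling, where no share of all genes was counted. The WT-veh and αERKO values of this contrast also entered the rule, so its p is not given for single members.

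*Esr1* itself (chr10:4611593-5005614, plus strand, GRCm38), the disrupted gene, was a lower member. In WT it read 4.43, 4.55, 3.7 and 2.81 FPKM with vehicle and 8.74, 19.6, 13 and 15.7 with DES. In αERKO it was 1.3, 1.59, 1.75 and 1.43 with vehicle and 0.91, 1.15, 1.51 and 1.64 with DES. All αERKO samples were below all WT samples, none was at 0, and WT-DES was above WT-veh without overlap. The residual αERKO reads were counted over the whole gene, whose disrupted and intact parts the gene-level FPKM does not separate. In WT, DES changed *Esr1* by 1.61 ± 0.19 (SE), with a limma adjusted p of 2.69e-06. The interaction was 1.75 ± 0.27 (SE), given without a p because its WT-veh and αERKO values chose the gene. The 300 bases around its upstream annotated start (chr10:4611739-4612038, plus strand, GRCm38.p6, RefSeq) are shown because this is the gene that defines the groups, with the 50 bases after the start in capitals.
Esr1: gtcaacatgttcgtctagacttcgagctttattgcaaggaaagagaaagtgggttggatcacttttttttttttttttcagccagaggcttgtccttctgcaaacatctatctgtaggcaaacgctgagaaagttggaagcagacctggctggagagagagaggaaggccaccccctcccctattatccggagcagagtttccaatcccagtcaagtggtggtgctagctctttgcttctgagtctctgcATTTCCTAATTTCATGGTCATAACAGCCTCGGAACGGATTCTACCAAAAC
Within 10 Mb of *Esr1*, 48 genes were tested and 1 other, *Plekhg1* (chr10:3740364-3967303, plus strand), was a member. *Plekhg1* encodes a guanine nucleotide exchange factor for small GTPases. It was at 2.93, 3.71, 2.74 and 2.65 FPKM in WT-veh and 5.09, 7.02, 5.8 and 6.64 in αERKO-veh, and at 4.63, 5.6, 5.77 and 6.69 in αERKO-DES. In WT-DES it was higher still, at 7.56, 10.1, 9.42 and 9.65, above all other samples. That change with DES in WT was 1.34 ± 0.12 (SE), with a limma adjusted p of 1.69e-07.

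*Setdb2* and *Phf11c*, neighbours on chromosome 14, were both higher in αERKO. *Setdb2* (chr14:59402009-59440884, minus strand) belongs to the SET domain family of histone H3 lysine 9 methyltransferases. It was at 4.27, 3.34, 4.53 and 4.5 FPKM in WT-veh and at 3.91, 4.33, 4.17 and 3.45 in WT-DES. In αERKO-veh it was at 10.1, 16, 17.3 and 11.4 and in αERKO-DES at 8.01, 9.32, 19.9 and 13.8. The WT groups coincided and the αERKO groups lay wholly above both, with ratios to WT-veh of 3.29 and 3.07. The DES change in WT was −0.05 ± 0.22 (SE), with a limma adjusted p of 0.841, and in αERKO −0.14 ± 0.22 (SE), with a limma adjusted p of 0.726.

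*Phf11c* (chr14:59380833-59395381, minus strand), named here after its values were seen, is a PHD finger gene that lies 6628 bp from *Setdb2*. It was at 1.69, 0.47, 1.56 and 2.05 FPKM in WT-veh SV, 1.56, 1.59, 2.48 and 1.54 in WT-DES SV, 3.08, 3.79, 6.52 and 2.5 in αERKO-veh SV and 4.61, 2.87, 5.07 and 2.57 in αERKO-DES SV. The 8 αERKO samples were above the 8 WT samples by a narrow margin at a low level. The flanking genes were not members. *Phf11d* had means of 3.14 FPKM in WT-veh, 3.43 in αERKO-veh and 2.99 in αERKO-DES, and *Cdadc1* had 27.7, 28.9 and 29.9. *Cab39l*, whose annotated start at 59440972 lies head to head with that of *Setdb2*, had means of 56.5, 81.6 and 88.2, and 25.4 in WT-DES. The windows around both starts (RefSeq, GRCm38.p6) are shown because both genes were higher in αERKO, again with the 50 bases after the start in capitals. They are chr14:59440831-59441130 and chr14:59393463-59393762, both on the minus strand.
Setdb2: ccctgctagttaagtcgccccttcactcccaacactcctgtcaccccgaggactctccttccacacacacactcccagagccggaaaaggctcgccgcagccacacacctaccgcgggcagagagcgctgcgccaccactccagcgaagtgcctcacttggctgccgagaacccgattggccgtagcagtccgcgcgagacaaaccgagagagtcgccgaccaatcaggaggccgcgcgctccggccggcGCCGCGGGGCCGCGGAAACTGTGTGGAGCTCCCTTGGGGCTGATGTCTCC
Phf11c: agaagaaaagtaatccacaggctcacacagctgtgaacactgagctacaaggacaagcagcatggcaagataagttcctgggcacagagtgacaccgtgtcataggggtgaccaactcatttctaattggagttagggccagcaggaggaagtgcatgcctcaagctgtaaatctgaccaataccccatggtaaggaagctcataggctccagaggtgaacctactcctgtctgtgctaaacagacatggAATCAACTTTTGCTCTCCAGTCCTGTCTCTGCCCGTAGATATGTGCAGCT
Neither window holds the palindromic oestrogen response element (GGTCA, any 3 bases, TGACC) or the androgen response element (AGAACA, any 3 bases, TGTTCT) on either strand, and nor does that of *Esr1*. The same was so for all members with a RefSeq window, 84 higher and 63 lower. Of the 11687 tested genes with a window, 3 (0.026%) and 1 (0.009%) held the elements.

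**Figure D3:**
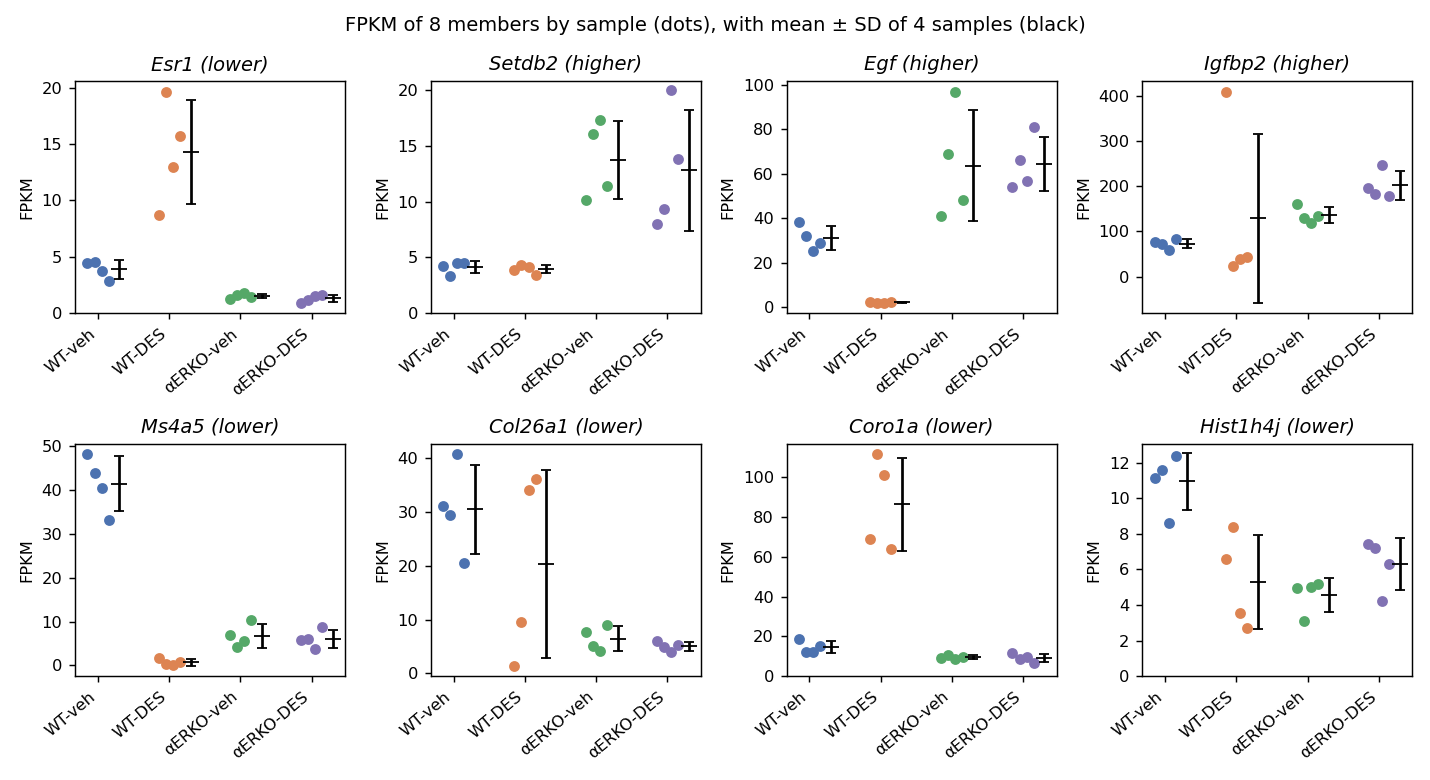
FPKM of 8 members in each of the 16 samples (dots, 1 panel per gene with its own linear axis), with the mean and SD of the 4 samples of each group (black bars). The word in brackets gives the side of the αERKO samples. The WT-DES samples lie with αERKO, with WT-veh or outside both, depending on the gene.

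A group of 11 higher members in hormone and growth factor signalling was put together after the values were seen. It is not a full count, and *Garem*, a growth factor receptor adaptor called lower in WT-DES, was left out. In WT-DES, 2 of the 11 were called higher and 4 lower, against 28.9% and 23.9% of all genes, and 5 were not called. After correction for length 9 of the 11 met the rule, *Prlr* and *Igf1r* falling short with smaller folds of 1.498 and 1.38. Of the 11, 9 were called higher in αERKO than in WT among DES-treated mice, as were 75.7% of all higher members, which the αERKO-DES values helped to choose. *Egf* (chr3:129677565-129755316, minus strand) encodes the epidermal growth factor precursor. In WT it stood at 38.1, 31.8, 25.4 and 28.8 FPKM after vehicle and 2.43, 2.08, 1.9 and 2.51 after DES. In αERKO it stood at 40.8, 68.8, 96.9 and 48.1 after vehicle and 54.1, 66.1, 56.7 and 81.1 after DES. WT-DES was lowest by far and αERKO was above WT-veh, the nearest samples being 38.1 and 40.8. DES changed it in WT by −3.30 ± 0.21 (SE), with a limma adjusted p of 6.72e-09, and in αERKO by 0.08 ± 0.21 (SE), with a limma adjusted p of 0.855. The interaction was −3.38 ± 0.30 (SE), given without a p because its WT-veh and αERKO values chose the gene.

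*Prlr*, the prolactin receptor, followed the same order. Its mean FPKM was 28.6 ± 4.49 with vehicle and 7.21 ± 3.38 with DES in WT, and 54.6 ± 7.13 and 47.7 ± 7.77 in αERKO (SD, n = 4 each), and WT-DES changed by −1.96 ± 0.26 (SE), with a limma adjusted p of 8.97e-06. *Fkbp5* (chr17:28399094-28517527, minus strand) encodes a co-chaperone of steroid receptors that androgens and glucocorticoids induce. It was at 42.7, 37.4, 41.1 and 62.2 with vehicle and 20.3, 15.5, 12.6 and 12.2 with DES in WT, while αERKO mice had 78.1, 77.6, 87.9 and 75.2 with vehicle and 78.8, 78.3, 86.5 and 67.8 with DES. The 8 αERKO samples stayed between 67.8 and 87.9, the WT-veh sample nearest to them being at 62.2. DES changed *Fkbp5* in WT by −1.53 ± 0.16 (SE), with a limma adjusted p of 5.77e-07.

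*Srd5a2*, the 5α-reductase that converts testosterone to dihydrotestosterone, was at 10.7 ± 1.07 in WT-veh SV, 6.47 ± 3.11 in WT-DES SV, 18.9 ± 1.56 in αERKO-veh SV and 17.5 ± 3.19 in αERKO-DES SV (SD, n = 4 each). Its DES change in WT was −0.75 ± 0.25 (SE), with a limma adjusted p of 0.0124. The receptor *Igf1r* did not pass in WT-DES. It was at 12.9 with vehicle and 14.4 with DES in WT, and 22.8 and 21.6 in αERKO, and its DES change in WT was 0.15 ± 0.10 (SE), with a limma adjusted p of 0.179. *Pappa2*, a protease that cleaves insulin-like growth factor binding proteins, rose in WT-DES as well, with means of 1.43 with vehicle and 4.96 with DES in WT, against 4.51 and 3.42 in αERKO and a change in WT of 1.24 ± 0.18 (SE), with a limma adjusted p of 2.04e-05. *Prlr*, *Srd5a2*, *Igf1r* and *Pappa2* were picked after their values were seen.

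*Igfbp2* (chr1:72824503-72852474, plus strand), an insulin-like growth factor binding protein, was the most abundant of the group. With vehicle it was at 76.5, 71.7, 59 and 82.1 in WT and 160.0, 129.6, 118 and 135 in αERKO, and αERKO-DES samples read 197, 183, 247 and 179. In WT-DES it was at 409, 24, 39.1 and 43, with sample 1 above all other samples and the other 3 below all of them. The mean log2 difference of αERKO from WT between the DES-treated groups was 1.62, 2.51 without WT-DES sample 1 and 1.18 to 1.54 under the 4 other scalings, given with no test because the αERKO values chose the gene. *Dusp4*, a phosphatase that switches off MAP kinases, was at 7.54, 7.5, 5.86 and 6.03 in WT-veh SV, 15.9, 9.1, 7.57 and 9.25 in WT-DES SV, 16.4, 19.2, 13.3 and 18.2 in αERKO-veh SV and 13.4, 18.3, 16.4 and 19.8 in αERKO-DES SV. Its change in WT-DES was 0.52 ± 0.18 (SE), with a limma adjusted p of 0.0173, and it no longer passed without WT-veh sample 3 (limma adjusted p = 0.05001), without WT-DES sample 1 (0.0526) or under quantile normalization, where the change was 0.31 (0.177). The low WT-veh values of *Dusp4* helped to choose it and by themselves favour such a rise.

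Other higher members of large fold were expressed at moderate level. *Slc1a1* (chr19:28835049-28913960, plus strand), a glutamate transporter, was at 4.62, 4.32, 4.51 and 4.99 FPKM in WT-veh and 3.06, 2.74, 6.05 and 2.77 in WT-DES, whereas αERKO mice had 12.6, 13.3, 12.2 and 10.5 after vehicle and 11.1, 13.1, 17.6 and 17.3 after DES. No WT sample reached the αERKO range. *Fam19a5*, which encodes a small secreted protein, was at 6.94, 6.51, 5.51 and 7.78 with vehicle and 6.37, 5.89, 8.61 and 7.04 with DES in WT, and 14.2, 15.1, 17.3 and 13 and 19, 19.2, 19.6 and 19.7 in αERKO. WT-DES overlapped WT-veh and its change was 0.05 ± 0.11 (SE), with a limma adjusted p of 0.69. *Angptl7*, a secreted angiopoietin-like protein, had ratios to WT-veh of 2.83 in αERKO-veh and 4.21 in αERKO-DES, and its WT-DES samples, at 17.8, 11.9, 12.9 and 6.15, overlapped both WT-veh and αERKO.

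*Cpm* (chr10:117629500-117687352, plus strand), carboxypeptidase M of the cell surface, varied little within groups. It was at 21.4, 21.1, 19.1 and 20.2 with vehicle and 3.7, 4.03, 3.25 and 3.11 with DES in WT, while αERKO mice had 38.3, 47.4, 43.6 and 39.2 with vehicle and 40.4, 44.8, 42.6 and 47.1 with DES. The groups of WT did not overlap each other or αERKO, and DES changed *Cpm* in WT by −2.25 ± 0.08 (SE), with a limma adjusted p of 6.7e-11. *Gm2115* had means of 4.01, 1.46, 11.2 and 18.4 for the WT groups and then the αERKO groups, vehicle before DES, and changed in WT-DES by −1.03 ± 0.25 (SE), with a limma adjusted p of 0.00178. *Garem*, an adaptor of growth factor receptor signalling, changed in WT-DES by −0.89 ± 0.20 (SE), with a limma adjusted p of 0.000992. Its interaction was −0.82, and −0.34 and not called after rescaling without the 20 most abundant genes. In contrast *Trp53inp1*, a p53-induced gene, rose there by 0.70 ± 0.17 (SE), with a limma adjusted p of 0.00141, to 15.3, 24.7, 20.8 and 18.7 FPKM, a range that overlapped the 18.5 to 26.6 of αERKO. After correction for length that change was 0.46, and the interaction went from 0.81 to 0.48, both short of a call.

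Membrane transporters and channels gave a group of 9 higher members and genes of the secretory pathway a group of 5, both put together after the values were seen. Neither is a full count, and *Atp13a4*, a transport ATPase called lower in WT-DES, was left out. Of the 9, 2 were called higher in WT-DES and 3 lower, and of the 5, 1 and 2, counts too small to set against the 28.9% and 23.9% of all genes. After correction for length 6 of the 9 and 1 of the 5 met the rule. A separate list of 14 ER folding and secretory pathway genes held 0 members. *Slc44a4*, a choline transporter-like protein, was at 55.5, 50.5, 50.2 and 48.4 in WT-veh SV, 10.6, 14.9, 10.2 and 11.3 in WT-DES SV, 90.9, 93, 98.8 and 68.8 in αERKO-veh SV and 104, 106, 139.9 and 101 in αERKO-DES SV. *Ero1lb*, an oxidase that forms disulphide bonds in the endoplasmic reticulum, was at 57.3, 53, 50.1 and 43.5, 8.95, 9.47, 9.26 and 11.1, 92.6, 88.7, 95.4 and 66.9 and 94.3, 110.3, 145 and 117 in the same order of groups. For both genes the 4 WT-DES samples were far below the others. Their changes in WT-DES were −2.04 and −2.28, with limma adjusted p of 6.34e-09 and 2.58e-09. *Epb4.1*, protein 4.1 of the membrane skeleton, was at 80.8 ± 5.13, 35.1 ± 6.12, 123 ± 7.53 and 125.6 ± 11.4 (SD, n = 4 each) and changed in WT-DES by −1.19 ± 0.10 (SE), with a limma adjusted p of 8.3e-08. Its smaller fold in αERKO was 1.25 after correction for length, short of the rule.

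Basement membrane, matrix and junction genes gave a group of 10 higher members, among them *Lama1* and *Lama3* of the laminins, *Col4a6* of type IV collagen and *Tjp1* of tight junctions. This grouping too was made after the values were seen. In WT-DES 2 of the 10 rose and 2 fell, against 28.9% and 23.9% of all genes. *Lama3*, picked after its values were seen, was at 3.88 with vehicle and 13.2 with DES in WT, and 6.79 and 6.02 in αERKO and rose in WT-DES by 1.52 ± 0.15 (SE), with a limma adjusted p of 4.55e-07. *Col4a6* was at 27.3, 28.1, 23 and 19.5 with vehicle and 16.5, 20.8, 29.9 and 18.8 with DES in WT, while αERKO mice had 29.8, 51.5, 60.7 and 38.2 with vehicle and 29.7, 41.4, 31.1 and 50.5 with DES, its lowest αERKO sample being 29.7 and its highest WT-veh sample 28.2. Only 2 of the 10 still met the rule once each sample's trend on transcript length was removed, as described with the lengths.

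*Doxl2* (chr6:48974963-48978746, plus strand), a diamine oxidase-like gene, was the member called with DES in αERKO. It was at 9.7, 9.73, 10.9 and 10.2 in WT-veh and 0.34, 0.03, 0.03 and 0.21 in WT-DES, where the lowest values are near the level of 1 fragment. In αERKO-veh it was at 21.6, 18, 21.2 and 14.3 and in αERKO-DES at 25.1, 26.5, 44.1 and 29.1. The αERKO groups did not overlap, and their difference was 0.69 ± 0.16 (SE), with a limma adjusted p of 0.0417. Both groups entered the rule that chose *Doxl2*, so the call is not free of that choice. This call did not pass without αERKO-veh sample 2 or 4 (limma adjusted p = 0.150 and 0.128) or without αERKO-DES sample 1, 2 or 3 (0.0840, 0.0657 and 0.132). Nor did it pass with a pseudocount of 0.1 (0.179), without a minimum on FPKM (0.0869), under quantile normalization (0.0811), after rescaling without the 20 most abundant genes (0.0826) or in a fit of the αERKO groups alone (0.1046). Across these alternatives the change itself was 0.51 to 0.78.

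Among lower members *Ms4a5* (chr19:11273238-11283873, minus strand), of the membrane-spanning 4A family, had the largest fold of those at 10 FPKM or more. It was at 48.2, 43.9, 40.6 and 33.3 in WT-veh SV, 1.67, 0.29, 0.06 and 0.7 in WT-DES SV, 6.86, 4.13, 5.58 and 10.4 in αERKO-veh SV and 5.8, 5.94, 3.66 and 8.78 in αERKO-DES SV. WT-veh was high alone, αERKO was far below it and WT-DES was below αERKO. The means of WT-veh were 6.15 and 6.86 times those of αERKO-veh and αERKO-DES, and the DES change in WT was −4.74 ± 0.29 (SE), with a limma adjusted p of 3.96e-09. *Gm694* showed the same order, with means of 27.2 with vehicle and 2.11 with DES in WT, and 9.6 and 14.7 in αERKO and a change in WT-DES of −3.29 ± 0.31 (SE), with a limma adjusted p of 2.43e-07. A transcript listed as *AK144265* had, in the same order of groups, means of 15.9, 3.57, 6.82 and 7.84.

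Some lower members spread widely among the WT-DES samples instead. *Col26a1* (chr5:136741759-136883209, minus strand), a collagen gene first described in testis and ovary, was at 31.2, 29.6, 40.8 and 20.6 in WT-veh, whereas αERKO mice had 7.63, 5.13, 4.13 and 9.07 after vehicle and 5.99, 4.98, 3.91 and 5.3 after DES. In WT-DES it was at 1.45, 9.56, 34.2 and 36.1, with samples 3 and 4 in the WT-veh range, sample 1 below all αERKO samples and sample 2 between. It did not pass in WT-DES relative to WT-veh, with a limma adjusted p of 0.1005. *Eddm3b*, an epididymal protein gene, was at 13.9, 11.2, 17.9 and 18.6 with vehicle and 7.68, 33.8, 34.4 and 15.8 with DES in WT, while αERKO mice had 9.98, 1.15, 1.54 and 5.65 with vehicle and 8.97, 4.51, 0.53 and 0.95 with DES. *Rprm*, which encodes the cell cycle inhibitor reprimo, was, in the same order of groups, at 15.6, 13.9, 13.4 and 10.1, 7.62, 18.2, 24.1 and 31.8, 6.08, 2.04, 1.53 and 4.41 and 6.98, 5.76, 3.07 and 3.31. For *Rprm* all WT-DES samples were above all αERKO samples. A list of 4 epididymis genes, set here beside *Eddm3b*, summed to 316 to 520 FPKM with vehicle and 37.1 to 361 with DES in WT. In αERKO these genes summed to 19.6 to 430 with vehicle and 4.02 to 288 with DES. The part of epididymal tissue in the level of *Eddm3b* was not tested.

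A block of 12 lower members encodes proteins known from leukocytes, a grouping made after the values were seen. They are *Csf2rb*, *Alox5ap*, *Cd37*, *Fyb*, *Lsp1*, *Coro1a*, *Cfp*, *Nrros*, *H2-DMa*, *Tyrobp*, *Fgd2* and *Ear2*. With DES in WT, 10 of the 12 were called higher and 0 lower, against 28.9% and 23.9% of all genes tested. These counts rest on which genes were picked. Of lower members left out that may also be placed with leukocytes, *Lyz1* and *Sectm1a* were called lower in WT-DES, *Thy1* was not called and *Wfdc17* was called higher. Between the DES-treated groups all 12 were called lower in αERKO (29.6% of all genes were), and for all 12 the 4 WT-DES samples were above the 8 αERKO samples (26.2% of all genes). The rule chose these genes for low αERKO values, which by itself favours both of the latter counts. Their FPKM summed to 189 to 242 with vehicle and 606 to 772 with DES in WT, and to 102 to 138 and 89.2 to 143 in αERKO.

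*Csf2rb*, the β chain of the receptors for IL-3, IL-5 and GM-CSF, was at 12.3, 11.52, 10.3 and 8.36 in WT-veh SV, 21.7, 21.3, 20.1 and 21.8 in WT-DES SV, 4.16, 4.41, 3.24 and 5.3 in αERKO-veh SV and 4.04, 4.74, 3.12 and 3.11 in αERKO-DES SV. The 3 levels did not overlap, and DES changed it in WT by 0.95 ± 0.14 (SE), with a limma adjusted p of 1.84e-05. *Coro1a*, an actin-binding protein of blood cells, was at 18.7, 12.3, 12 and 15.1 with vehicle and 69.1, 112, 101 and 63.9 with DES in WT, and 9.24, 10.9, 8.86 and 9.64 and 11.6, 8.72, 9.86 and 6.73 in αERKO. It rose in WT-DES by 2.47 ± 0.19 (SE), with a limma adjusted p of 2.95e-08, while the αERKO values came close to WT-veh, the highest being 11.55 against a lowest WT-veh value of 12.03. *Cd37*, a leukocyte tetraspanin, had means of 2.75, 16.9, 1.6 and 1.49 in the same order of groups. *Alox5ap*, which serves leukotriene synthesis, was at 39.2 ± 2.39, 57.2 ± 11.4, 14.6 ± 6.44 and 16.4 ± 8.47 (SD, n = 4 each), and was not called in WT-DES, at 0.52 ± 0.30 (SE), with a limma adjusted p of 0.134.

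The list of 12 leukocyte markers used as a check, among them *Ptprc*, *Cd3e*, *Csf1r* and *Cd68*, held 0 members. *Cd52*, which male reproductive epithelium also makes, supplied most of its summed level outside WT-DES, where its mean was 452 FPKM and the median sum 1088. The other 11 markers summed to 97.1 to 168 FPKM with vehicle and 488 to 738 with DES in WT, and to 68.2 to 107 and 60.4 to 87.1 in αERKO. *Lyz2* weighed most in these sums, with means of 84.0 and 375 in WT and 47.5 and 35.8 in αERKO. *Itgam* was not lower in αERKO, with means of 3.23 and 15.6 in WT and 3.77 and 4.02 in αERKO. *Ptprc*, the common leukocyte antigen, was detected in all 16 samples, with means of 2.57 and 32.2 in WT and 2.85 and 2.17 in αERKO. The part of leukocyte number in the 12 members was not tested. Of the 12, 10 met the rule after median-ratio scaling, 7 after quantile normalization, 3 after rescaling without the 20 most abundant genes and 5 after correction for length, with *Coro1a* in none of the 4.

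The histone H4 genes of the chromosome 13 cluster *Hist1h4i*, *Hist1h4j* and *Hist1h4n* were lower members, under all 4 other scalings as well. These 3 are near-identical copies whose reads may be shared. *Hist1h4j* was at 11.2, 11.6, 8.63 and 12.4 with vehicle and 6.58, 8.36, 3.56 and 2.72 with DES in WT, while αERKO mice had 4.96, 3.13, 5.04 and 5.17 with vehicle and 7.44, 7.2, 4.23 and 6.33 with DES, so that WT-DES overlapped αERKO. In WT-DES the changes were −1.10 for *Hist1h4i*, −1.30 for *Hist1h4n* and −1.01 for *Hist1h4j*, with limma adjusted p of 0.000167, 0.000665 and 0.0022. Of 51 replication histone genes tested, these 3 were the members, and the list as a whole had a median difference from WT-veh of −0.31 without DES and −0.13 with DES in αERKO, against −0.02 and −0.03 for all genes tested. In WT-DES 40 of the 51 were called lower and 0 higher, against 23.9% and 28.9% of all genes.

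Other lower members also came as neighbours or relatives. The α-defensin genes *Defa2*, *Defa20*, *Gm15308* and *Gm21002*, on chromosome 8, were all lower in αERKO and all called lower in WT-DES (23.9% of all genes were), their changes there being −2.90 to −2.25. They are close copies, so the split of reads among them is uncertain. *Defa2* was at 6.38, 5.81, 5.69 and 4.27 in WT-veh SV, 0, 0, 0.16 and 0.32 in WT-DES SV, 1.73, 0.57, 0.78 and 0.97 in αERKO-veh SV and 2.42, 1.56, 1.25 and 2.05 in αERKO-DES SV. The globin *Hba-a2*, whose reads may be shared with its copy *Hba-a1*, was at 299.5, 214, 279 and 397 with vehicle and 152, 415, 373 and 306 with DES in WT, and 179, 159, 114 and 204 and 166, 133, 148 and 83.1 in αERKO. WT-DES overlapped WT-veh and αERKO, and neither *Hba-a2* nor the β-globin *Hbb-bs* was called there. Both met the rule under median-ratio scaling and under none of the other 3 scalings. *Alas2*, the haem synthesis enzyme of red cells, was no member, with means of 8.52 in WT-veh, 7.76 in αERKO-veh and 7.19 in αERKO-DES.

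A group of 4 epithelial surface and inhibitor genes, *Sprr2a1*, *Slpi*, *Krt80* and *Serpina3g*, was put together after the values were seen. In WT-DES *Sprr2a1*, *Slpi* and *Serpina3g* were called higher (28.9% of all genes were) and *Krt80* was not, at 0.08 ± 0.21 (SE), with a limma adjusted p of 0.728. In all 4 the WT-DES samples were above αERKO, as in 26.2% of all genes. *Sprr2a1*, a small proline-rich protein of the epithelial envelope with close copies, was at 188, 196, 151 and 283 with vehicle and 1117, 289, 393 and 419.9 with DES in WT, while αERKO mice had 89.4, 80.6, 114 and 141 with vehicle and 88.2, 88.4, 46 and 80 with DES. *Serpina3g*, a serine protease inhibitor, was at 10.9 ± 1.75, 41.2 ± 13, 4.99 ± 0.573 and 4.67 ± 0.762 (SD, n = 4 each) and rose in WT-DES by 1.79 ± 0.18 (SE), with a limma adjusted p of 3.7e-07. *Mdk*, the growth factor midkine, was at 23.6, 24.4, 29.5 and 35.7 in WT-veh SV, 66, 108, 129 and 116 in WT-DES SV, 15.7, 15.2, 19.2 and 22.4 in αERKO-veh SV and 19.5, 14.8, 8.86 and 8.48 in αERKO-DES SV, and rose in WT-DES by 1.83 ± 0.25 (SE), with a limma adjusted p of 1.1e-05. *Mdk* met the rule under median-ratio scaling and under none of the other 3, and *Sprr2a1* under median-ratio scaling and after correction for length.

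**Figure D4:**
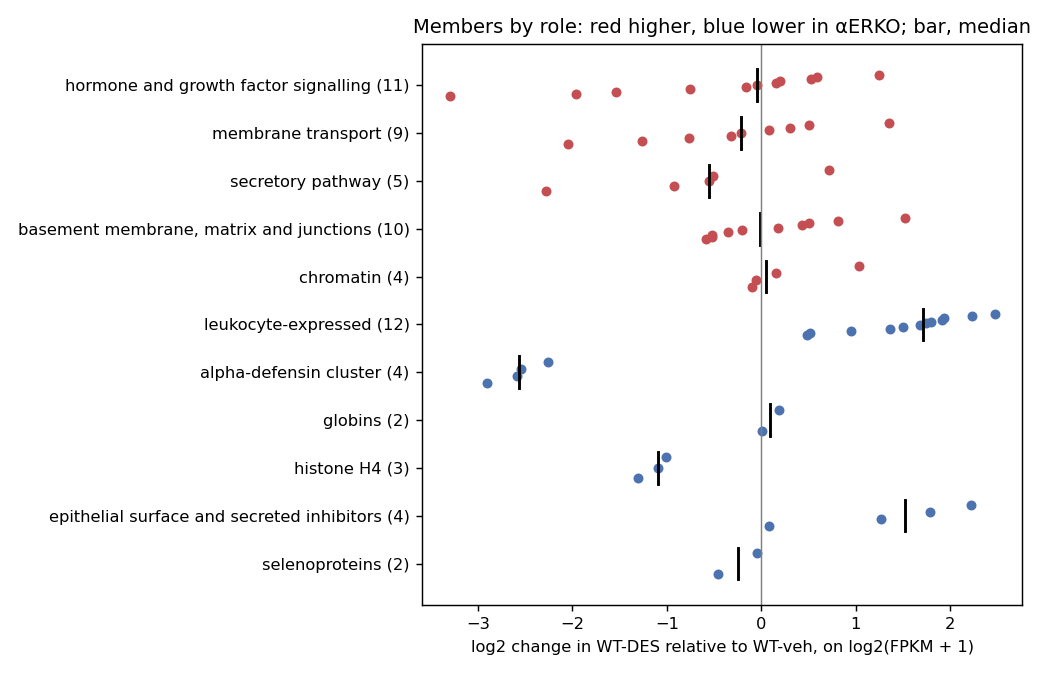
Log2 change in WT-DES relative to WT-veh, on log2(FPKM + 1), for 66 members in groups by role (number of genes in brackets). Dots are genes, red where higher and blue where lower in αERKO, and black bars are group medians. All 12 genes picked as leukocyte-expressed lie above 0, at 0.48 to 2.47, and all defensin and histone H4 genes lie below it.

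Apart from the globins, the 3 lower members of highest FPKM in WT-veh were not called in WT-DES. *Sepw1*, selenoprotein W, was at 361 ± 37.3 with vehicle and 262 ± 18.3 with DES in WT, and 229 ± 17.5 and 217 ± 33.7 in αERKO (SD, n = 4 each). *Dbi*, the acyl-CoA-binding protein, was at 310.1 ± 67.6, 232 ± 42.3, 203 ± 25.5 and 183 ± 44.6, and *Lgals1*, galectin-1, at 261 ± 22.7, 247 ± 28.9, 151 ± 12.1 and 146 ± 25.4. *G0s2*, an inhibitor of lipolysis, was at 60.5, 69.1, 81.1 and 66 with vehicle and 59, 39.5, 35 and 70.4 with DES in WT, while αERKO mice had 34, 32.6, 21.6 and 26.7 with vehicle and 21.7, 26.5, 17.2 and 18.4 with DES, with all WT samples above all αERKO samples. *Dbi* met the rule under none of the 4 other scalings, *Sepw1* only under median-ratio scaling, and *Lgals1* neither under quantile normalization nor after correction for length.

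Lists of pathway genes held few members. Among 8 steroid receptor genes tested, *Esr1* was the member, and among 11 androgen-responsive genes it was *Fkbp5*. The lists of 10 oestrogen-induced genes and 13 oestrogen receptor partner genes held 0. In WT-DES 8 of those 10 oestrogen-induced genes were called higher (28.9% of all genes were), with a median change of 1.85, whereas their median difference from WT-veh in αERKO was 0.01 without DES and −0.23 with it. Lists of the SV secretion (11 genes tested), smooth muscle (10), fibroblast (10), skeletal muscle (18), adipose (10) and endothelial (6) genes also held 0. The 83 genes of cytosolic ribosomal proteins held 0 as well, but for 22 of them (26.5%, against 3.88% of all genes tested) all 8 αERKO samples were below all 4 WT-veh samples without meeting the whole rule, and the median log2 difference of all 83 from WT-veh was −0.60 without DES and −0.32 with it. In WT-DES 74 of the 83 were called lower (23.9% of all genes were). Of 90 oxidative phosphorylation genes the member was *Ndufa4l2*, at 11.8 in WT-veh SV, 12.3 in WT-DES SV, 7.62 in αERKO-veh SV and 7.4 in αERKO-DES SV (no longer a member after rescaling or correction for length), and of 38 collagens the members were *Col4a6* and *Col26a1*. Skeletal muscle markers, of which 12 of 18 were called lower with DES in αERKO (1.41% of all genes were), summed to 759 to 2622 FPKM in WT-veh, and in αERKO to 819 to 3265 with vehicle and 612 to 878 with DES. The median log2 change of the 18 with DES in αERKO was −4.18. Of the 10 adipose genes 6 were called lower there. Their FPKM in αERKO summed to 164 to 1453 with vehicle and 35.02 to 87.45 with DES.

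Transcript length differed between the sides. The longest annotated transcript had a median of 5104 nt over 108 higher members with a length, 1591.5 nt over 96 lower members and 3239 nt over 15036 tested genes. With all tested genes split by length into 4 bins of equal size, from short to long, the higher members fell 8, 11, 26 and 63, and the lower members 66, 17, 8 and 5. With each sample's own length trend removed, 145 genes met the rule, 81 higher and 64 lower, of which 66 and 48 were members as given here. The 3 higher and 7 lower members without a matched length could not be counted here or among those that met the rule under every scaling. The part of length in the other members was not tested further. Under median-ratio scaling, quantile normalization, rescaling without the 20 most abundant genes and correction for length alike, 60 higher and 36 lower members met the rule, *Esr1*, *Setdb2*, *Egf*, *Cpm*, *Slc1a1*, *Fkbp5*, *Doxl2*, *Plekhg1*, *Ms4a5*, *Col26a1* and *Csf2rb* among them. The rescaling alone gave 177 higher and 51 lower genes, and quantile normalization 132 and 74, against 111 and 103 here.

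**Figure D5:**
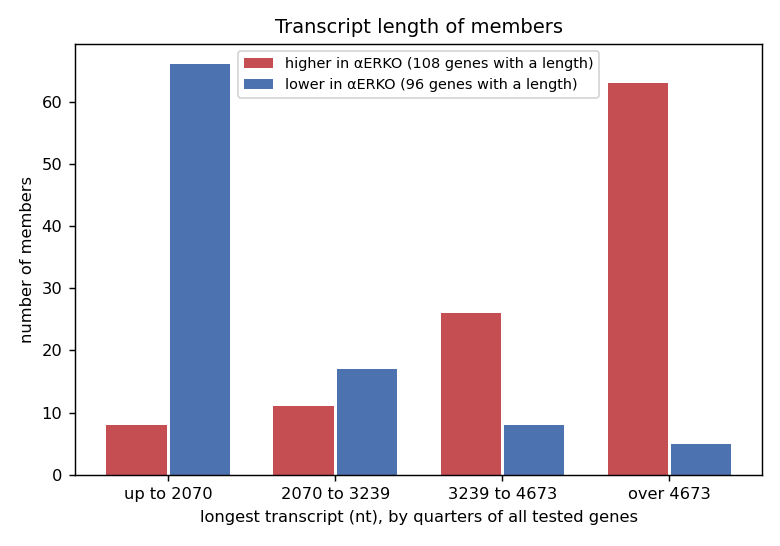
Number of higher (red) and lower (blue) members in 4 bins that split all tested genes evenly by length of the longest transcript in nt. Higher members gather in the longest bin (63 of 108) and lower members in the shortest (66 of 96).

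The number of genes that met the rule also rested on single samples. Without WT-veh sample 2 it was 377, and without αERKO-DES sample 1 it was 413, of which 111 higher and 102 lower were members of the set given here. Fewer samples loosen a rule of no overlap by its construction. With αERKO-DES sample 4 left out it was 176.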

How the data were processed

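RNA was sequenced from the SV of 16 mice or pools of mice in 4 groups of 4. The authors sequenced the libraries as paired ends, aligned the reads to mm10 (GRCm38) with TopHat2 2.0.4 and deposited FPKM per gene from Cufflinks 2.0.2, with 2 decimals. The gene annotation behind the table and any further scaling are not given in the sources used here. FPKM holds no counts, so precision rests on the spread between samples, and the commonest lowest FPKM among 1113 olfactory receptor genes, taken as near the level of 1 fragment, was 0.05 or 0.06 in every sample.

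The rule was applied to all 31274 genes. Members, gene lists and tests were chosen with earlier results of these data known, and the role groups after the values were seen. Genes with a mean above 1 FPKM in any group (15988) entered limma 3.58.1 (R 4.3.3) as log2(FPKM + 1), in 1 model with group means, trended eBayes and Benjamini-Hochberg adjustment. A call needed a ratio of 1.5 with an adjusted p no higher than 0.05, with a mean above 1 FPKM in 1 of the groups compared, and the interaction the same p and a 1.5-fold difference of changes. The limma fit and its calls were tested on simulated data with known changes in WT-DES. The rule, the scalings and Dixon's check were not. Positions and the longest transcript per gene are from GENCODE M21 (22557 genes matched by symbol, 979 by synonym, 7738 unmatched), and start windows from RefSeq. The correction for length subtracts each sample's lowess trend on length.

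The genes named are *Esr1*, the 12 higher and 12 lower members of largest smaller fold at a mean of at least 10 FPKM, the 4 most abundant on each side, members of the lists (up to 4 a list), members within 10 Mb of *Esr1*, up to 3 members a direction called with DES in αERKO, up to 3 a direction in the interaction, and the 3 nearest the limit on either side. Others are said to be picked after their values were seen, and some genes the rule names are not reported here. Same-numbered samples of different groups did not deviate together (24 pairs, correlation −0.215 to 0.277, 3 over 0.1), so numbers were not used as pairs. Alternatives were another pseudocount, other minimums, thresholds and scalings, sample weights, a replicate block, fits of only the compared groups and leaving out each sample. Python 3.11.15 with pandas 2.3.3, numpy 2.4.6 and, for plots, matplotlib 3.10.9 did the rest.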

Additional observations from a re-analysis of the deposited data

Results flagged for a closer look

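Single samples stood apart from the other 3 of their group, with a gap past Dixon's limit, in 9 of 192 groups of 4 checked, which are the 46 named members and the averages over the higher and over the lower members, each in 4 groups. Chance flags about 1 in 20 such groups. The 9 were not spread evenly, with 4 in WT-DES sample 1, and over all 214 members that sample stood alone high for 14 and low for 4, against 0 to 7 in all for each other sample. WT-DES sample 1 stood high for *Igfbp2* at 409 FPKM (others 24.0 to 43.0), for *Sprr2a1* at 1117 (others 289 to 419.9), for *Mical2* at 15.5 (others 7.04 to 8.29) and for *Epb4.1* at 44.3 (others 31.2 to 32.7). WT-DES sample 3 stood high for *Slc1a1* at 6.05 (others 2.74 to 3.06). In αERKO-veh sample 2 *Epb4.1* was high at 134 (others 118 to 120.02) and *Hist1h4j* low at 3.13 (others 4.96 to 5.17). *Slc44a4* was high at 139.9 in αERKO-DES sample 3 (others 101 to 106) and *Ndufa4l2* at 14.5 in WT-veh sample 4 (others 10.8 to 11.02).

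The change with DES differed between WT and αERKO in a test of the difference itself for 106 members, against 56.4% of all genes tested, and for 24 of the 46 named members (limma, adjusted p of at most 0.05). The WT change minus the αERKO change, on log2(FPKM + 1), was positive at 1.75 for *Esr1*, 0.81 for *Trp53inp1* (0.48 and not called after correction for length), 1.10 for *Csf2rb*, 1.87 for *Serpina3g*, 1.76 for *Sprr2a1*, 1.44 for *Plekhg1*, 2.55 for *Coro1a*, 2.35 for *Mdk* and 2.29 for *Cd37*. It was negative at −1.68 for *Gm2115*, −0.82 for *Garem* (−0.34 and not called after rescaling without the 20 most abundant genes), −2.30 for *Cpm*, −3.38 for *Egf*, −1.22 for *Epb4.1*, −2.71 for *Ero1lb*, −2.40 for *Slc44a4*, −4.61 for *Ms4a5*, −2.05 for *AK144265*, −1.50 for *Fkbp5*, −1.26 for *Hist1h4i*, −1.63 for *Hist1h4n*, −1.39 for *Hist1h4j*, −3.97 for *Doxl2* and −3.92 for *Gm694*. The WT-veh and αERKO samples of this contrast also chose the members.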

How the results depend on the processing

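Raising the fold of the rule to 2 left 49 members. The count of members called with DES in αERKO, 1 as given, was 2 with a pseudocount of 0.1, neither of them *Doxl2*, 2 after correction for length, 13 with sample weights (whose estimation stopped before it converged), and 0 without a minimum on FPKM, under quantile normalization, with an adjusted p of at most 0.01 and in a fit of the 2 groups only. After rescaling without the 20 most abundant genes it was 1, another gene called lower. The causes were not tested. Leaving out 1 sample at a time gave 176 to 413 genes by the rule, and 110 to 119 members called with DES in WT, 0 to 6 with DES in αERKO (0 without αERKO-veh sample 2, 6 without αERKO-veh sample 1), 155 to 165 between the DES-treated groups and 101 to 111 in the interaction. With the replicate number as a block the counts were 113, 1, 163 and 105, against 113, 1, 164 and 106 without it. Rescaling without the 20 most abundant genes turned the balance of members called higher and lower from 45 and 68 to 71 and 44 with DES in WT, from 46 and 60 to 71 and 40 in the interaction and from 100 and 64 to 72 and 74 between the DES-treated groups. The rescaling also moved the median change of all genes, to 0.37 in WT-DES relative to WT-veh. The share of all genes called under it was not counted, so the turn cannot be read as a trait of the members. Of the 86 called changes of named members, 0 changed sign under the alternatives run and 12, in 10 genes, lost their call under at least 1. FPKM without counts leaves the precision of low values unknown.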
